A study of Homo sapiens with 10 samples.

Results

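The 3 clones of DLD-1 cells, a human colorectal cancer line, that carry the hairpin construct V2LHS_62673 against LMNB1 were compared with 3 clones that carry an empty vector. These 6 samples were chosen by their titles from the 10 samples of the series. The hairpin clones are numbers 8, 9 and 12, each grown from a single cell and measured on 1 array. The empty vector clones, whose titles name them biological replicates 1 to 3 and give no clone number, also have 1 array each. Both groups were kept under puromycin in RPMI with serum. Of the other 4 samples, 3 are arrays of clone 2, which carries the second construct V2LHS_62675, and 1 is wild type cells grown without puromycin. The wild type cells carry neither vector. Titles name the 3 arrays of the second construct clone 12, while the descriptions and the design text name them repeats of the single clone 2. The second reading was followed, and the arrays were averaged. Each clone passed through 1 founder cell, so a difference between groups rests on few founders, and each p-value weighs it against the spread within groups. That spread is clone-to-clone variation only where the samples of a group are separate clones.

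LMNB1 encodes lamin B1, a filament protein that lines the inside of the nuclear envelope with the other B-type lamin, the product of LMNB2, and the A-type lamins from LMNA. B-type lamins stay anchored in the membrane through a lipid tail, and the lamina holds silent chromatin at the nuclear edge. A short hairpin RNA is cut by the cell into a small RNA that directs the breakdown of a matching transcript.

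Levels are the deposited log2 values, where a difference of 1 is a doubling of the array signal. Of 22011 probes, 14432 carry a single gene symbol, and the probe with the highest mean was kept for each gene. Above a level of 5.96, the 25th percentile of all probes, 11198 genes were tested with limma, together with the probe for LMNB1. The probe for LMNB1 is also annotated to PCIF1, a gene for an enzyme that methylates RNA caps, and its signal cannot be assigned to either gene alone. The word passed is used for an adjusted p under 0.05 over these 11199 features.

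The array of clone 8 stood apart. It correlated with the other 5 arrays at 0.915 to 0.926 over all probes, while clones 9 and 12 correlated with each other at 0.992 and with the empty vector clones at 0.988 to 0.994. Its values spread less and its low end was raised, with a 25th percentile of 6.32 against 5.83 to 5.96 and an SD over probes of 1.92 against 2.08 to 2.13 in the other 5 clones. Single genes show the size of the gap. SDHC, a subunit of complex II of the respiratory chain, was 5.55 in clone 8 against 8.90 and 8.97 in clones 9 and 12, and the histone gene H2BC4 was 7.67 against 10.48 and 10.39. Of 7 epithelial markers, KRT8 lay at 12.26 to 12.83 and EPCAM at 11.26 to 11.73 in the 6 clones, and VIL1 was the least high at 8.09 to 8.69. CDH1 (10.43) and CDH17 (8.93) were lowest in clone 8, against 11.08 to 11.46 and 9.74 to 10.47 in the other 5. EPCAM (11.73) and KRT18 (10.35) were highest in clone 8, against 11.26 to 11.45 and 9.40 to 9.74. The 7 epithelial markers averaged 10.45 in clone 8 and 10.38 to 10.75 in the other 5 clones. The leukocyte marker PTPRC lay at 3.82 to 4.28 and the endothelial marker PECAM1 at 4.51 to 5.39, with clone 8 the highest in both. The 4 measured endothelial markers averaged 6.31 in clone 8 and 5.61 to 5.81 in the other 5 clones, the 6 mesenchymal markers 6.85 and 6.19 to 6.37, and the 5 leukocyte markers 6.31 and 5.85 to 5.98. Each count of calls is therefore given with all 3 hairpin clones and without clone 8. What sets the array of clone 8 apart was not tested.

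The probe annotated to the target was lower in every hairpin clone. The LMNB1 probe read 7.79 in clone 8, 7.70 in clone 9 and 7.45 in clone 12, against 8.93, 9.17 and 8.84 in empty vector clones 1 to 3. The groups do not overlap, and clone 8 lies with clones 9 and 12 for this probe. The difference was -1.33 (SE 0.17, 95% interval -1.72 to -0.94), which leaves 39.7% of the empty vector signal. Its adjusted p in limma was 0.214 with all 3 clones, and 9.14e-04 without clone 8, where the difference was -1.40 (95% interval -1.67 to -1.13). A two-sided exact permutation test over all 6 clones gave p = 0.1, and 20 regroupings of 3 against 3 cannot give a smaller one. Fewer cells with the transcript and less transcript per cell cannot be told apart in these bulk samples.

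The other lamins did not pass. LMNB2 was 10.13, 9.60 and 9.79 in clones 8, 9 and 12 and 9.56, 9.51 and 9.56 in the empty vector clones, a difference of 0.30 (95% interval -0.11 to 0.71) with all 3 clones and 0.16 (95% interval -0.06 to 0.37) without clone 8. All 3 hairpin clones lie above the empty vector clones, by little in clone 9. LMNA was 9.86, 9.71 and 9.88 against 9.94, 10.20 and 10.18, a difference of -0.29 (95% interval -0.64 to 0.06), and -0.31 (95% interval -0.55 to -0.06) without clone 8. LBR, the lamin B receptor that tethers chromatin to the inner nuclear membrane, differed by 0.22 (95% interval -0.17 to 0.60) and by 0.09 (95% interval -0.12 to 0.31). Of 19 measured genes of the nuclear lamina and envelope, 10 were higher and 9 lower with all 3 clones, 12 and 7 without clone 8, and none passed. SYNE2, which links the nucleus to the cytoskeleton, stood at 0.28 and its partner SUN1 at -0.22 without clone 8.

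**Figure D1:**
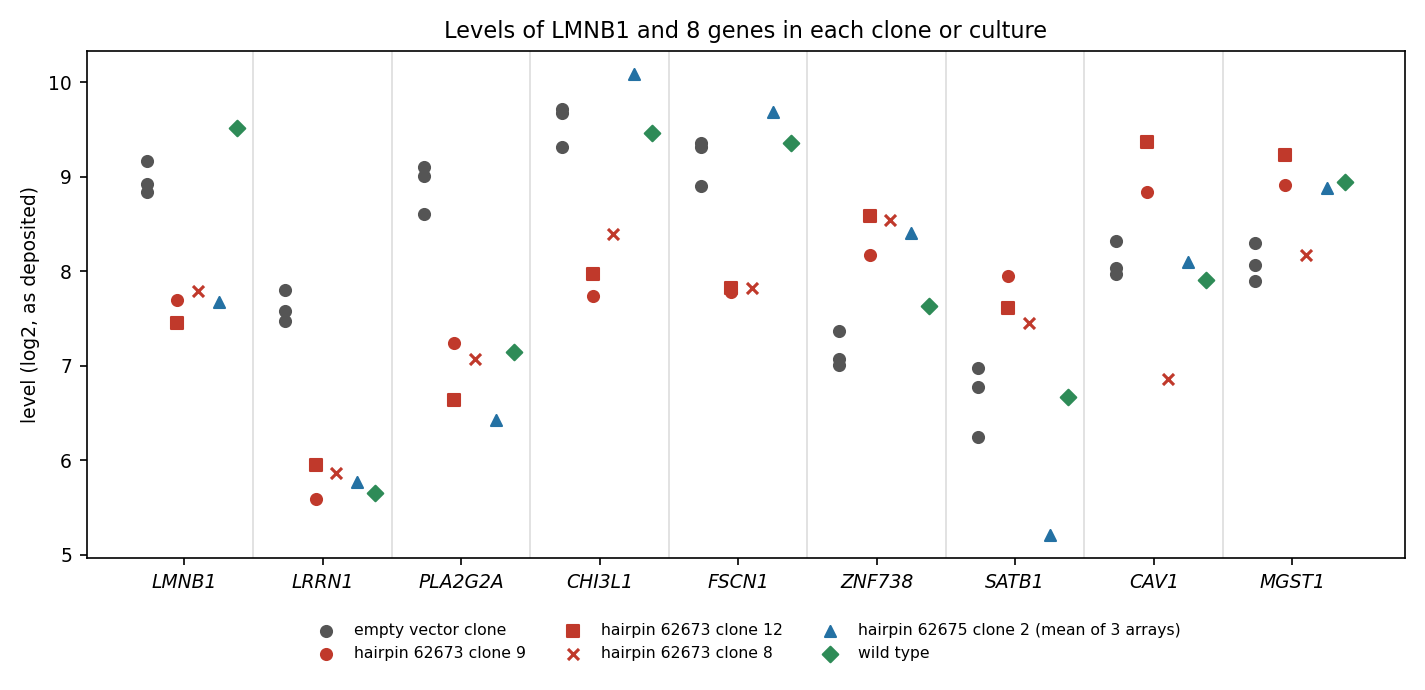
Each point is the log2 level, as deposited, of a gene in 1 clone or culture, with no error bars because each clone has 1 array apart from clone 2, whose point is the mean of 3 arrays. LRRN1, PLA2G2A, CHI3L1 and FSCN1 are lower in all 3 hairpin V2LHS_62673 clones than in the empty vector clones, while CAV1 is higher in clones 9 and 12 and lower in clone 8.

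Across the genome, the comparison with all 3 clones gave no gene past the threshold and the comparison without clone 8 gave 111. With all 3 clones, 0% of features passed in limma (lowest adjusted p 0.113). An unadjusted p under 0.05 was found for 359, 95 higher and 264 lower, or 3.21% of features, below the 5% that such a threshold gives where no feature differs. The median difference was 0.04 and 55.2% of features were higher. Without clone 8, 34 features rose (0.304%) and 77 fell (0.688%), 0.991% in all, and the median difference was -0.000614. The 34 genes that rose did so by 0.505 to 1.23 (median 0.70), and 2 of them at least doubled. For the 76 genes that fell beside LMNB1 the differences ran from -0.47 to -1.97 (median -0.65), and in 12 of them the signal fell to 50% or less. With clone 8 put back, 56 of these 76 still lay lower in every hairpin clone than in any empty vector clone, and 12 of the 34 lay higher. All of these called genes already lay apart without clone 8, as did 17.3% of all features on the lower side and 15% on the higher side. Of those features 45.9% on the lower side and 38.7% on the higher side still lay apart with clone 8, which makes 7.95% and 5.8% of all features. The called genes kept apart in 73.7% and 35.3% of cases.

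The count of 111 depends on single clones. Without empty vector clone 1 it was 493, without clone 2 of that group 5, without clone 3 of that group 4, and without hairpin clone 9 it was 248. The last setting leaves clone 12 as the lone hairpin sample, which is then assumed to vary like the other groups. LRRN1, PLA2G2A, CHI3L1 and LMNB1 passed when either of empty vector clones 2 and 3 was left out, and FSCN1 passed without empty vector clone 2. Every other gene named below as risen or fallen against the empty vector lost its call in both of these settings. With the wild type cells added to the controls the count was 2, FSCN1 and CHI3L1.

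**Figure D2:**
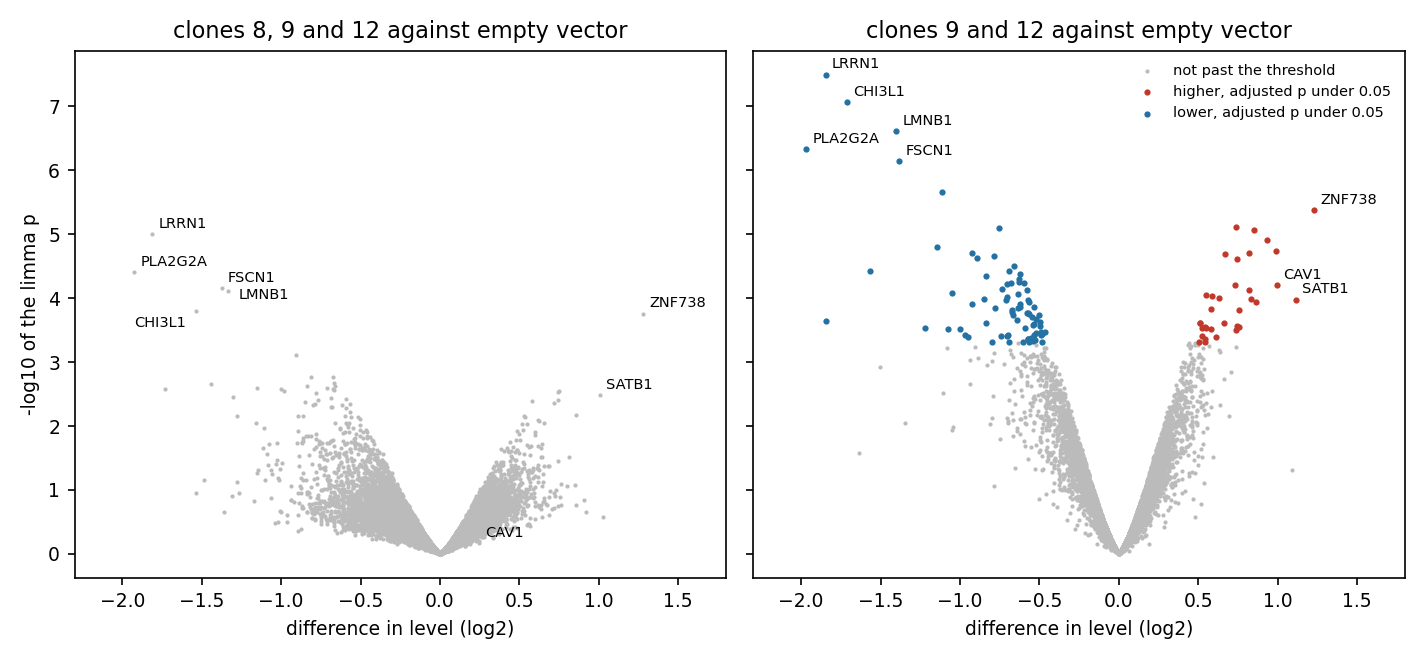
Each point is 1 of 11199 features, with the log2 difference between hairpin V2LHS_62673 and empty vector clones on the horizontal axis and -log10 of the unadjusted limma p on the vertical axis, for all 3 hairpin clones (left) and for clones 9 and 12 (right). Coloured points pass the adjusted threshold, which none does on the left and 34 higher and 77 lower features do on the right.

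CHI3L1, FSCN1 and PYGL passed in the same direction against all 3 other groups without clone 8, and clone 8 lay on the same side. CHI3L1, which encodes a secreted chitinase-like glycoprotein, was 8.39, 7.74 and 7.97 in clones 8, 9 and 12. It was 9.31, 9.68 and 9.72 in the empty vector clones, 10.09 in clone 2 and 9.47 in wild type cells. Every hairpin V2LHS_62673 clone lies below every other sample. The gene fell by 1.71 against the empty vector (SE 0.13, adjusted p 4.78e-04 in limma), fell by 2.23 against clone 2 (adjusted p 4.25e-04) and fell by 1.61 against wild type cells (adjusted p 0.0112), all without clone 8. With clone 8 the difference from the empty vector was -1.53 (SE 0.21, adjusted p 0.327). Against the empty vector, CHI3L1 passed under each of the 14 alternative settings run without clone 8. FSCN1 passed under 13 of 14, and PYGL under 4 of the 13 that kept it.

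FSCN1, which encodes fascin, the protein that bundles actin filaments in filopodia, gave the same picture with less spread among the hairpin clones. Its level was 7.82, 7.78 and 7.83 in clones 8, 9 and 12, and 8.90, 9.36 and 9.31 in the empty vector clones. Clone 2 had 9.68 and wild type cells 9.36, so the hairpin V2LHS_62673 clones are again below every other sample. Without clone 8 FSCN1 fell by 1.38 against the empty vector (SE 0.13, adjusted p 0.00162), fell by 1.88 against clone 2 (adjusted p 0.00117) and fell by 1.55 against wild type cells (adjusted p 0.0112) in limma. With clone 8 the first difference was -1.38 (SE 0.17, adjusted p 0.214).

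On the higher side, CAV1, the main coat protein of the membrane pits called caveolae, was 8.84 and 9.37 in clones 9 and 12 but 6.86 in clone 8. The empty vector clones had 8.32, 8.03 and 7.97, clone 2 had 8.10 and wild type cells 7.91. Clones 9 and 12 are the highest samples and clone 8 the lowest. Without clone 8 CAV1 rose by 1.00 against the empty vector (SE 0.16, adjusted p 0.0229), by 1.01 against clone 2 (adjusted p 0.0403) and by 1.20 against wild type cells (adjusted p 0.0324) in limma. With clone 8 the difference from the empty vector was 0.25 (95% interval -1.14 to 1.63). PYGL, the liver form of glycogen phosphorylase, was 7.04, 7.08 and 6.97 in clones 8, 9 and 12 and 6.39, 6.50 and 6.62 in the empty vector clones. Clone 2 had 6.30 and wild type cells 6.32, so all 3 hairpin V2LHS_62673 clones are the highest samples. PYGL rose by 0.52, 0.73 and 0.70 against the 3 groups without clone 8 (adjusted p 0.046, 0.0312 and 0.0387 in limma). Both FAM210A, which encodes a mitochondrial protein, and PTGER2, a prostaglandin E2 receptor, also passed in all 3 comparisons and were picked after their values were seen. FAM210A was 10.42 and 10.41 in clones 9 and 12, 9.68 to 9.82 in the other groups, and 7.60 in clone 8. PTGER2 was 7.22 and 7.36 in clones 9 and 12, 6.63 to 6.82 in the other groups and 6.61 in clone 8. For CAV1, FAM210A and PTGER2 alike, clone 8 was thus the lowest sample. The 3 comparisons share clones 9 and 12 and so are not independent of each other.

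The start regions of CHI3L1 and CAV1 are shown because these genes fell and rose against every other group in clones 9 and 12, although CAV1 was lowest of all samples in clone 8. They are the 250 bases before the RefSeq start of each gene on GRCh38.p14, upstream of the first exon, read 5′ to 3′ on the gene's strand.
CHI3L1: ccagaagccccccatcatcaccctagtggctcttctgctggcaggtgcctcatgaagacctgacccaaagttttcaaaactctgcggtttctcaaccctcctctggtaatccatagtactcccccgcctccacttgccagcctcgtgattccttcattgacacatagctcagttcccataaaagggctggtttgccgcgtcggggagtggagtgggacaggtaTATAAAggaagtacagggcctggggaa
CAV1: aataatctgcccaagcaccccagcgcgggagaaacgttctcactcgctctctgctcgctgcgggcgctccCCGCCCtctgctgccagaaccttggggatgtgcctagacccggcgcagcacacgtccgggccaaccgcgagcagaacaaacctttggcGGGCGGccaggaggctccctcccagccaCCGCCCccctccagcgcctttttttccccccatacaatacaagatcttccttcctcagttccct
The CHI3L1 region is chr1:203186705-203186954 on the minus strand, and its capitals mark TATAAA, 27 bases before the start. TATAAA or its reverse TTTATA occurs in 11.1% of 27305 promoter windows of this length. The CAV1 region is chr7:116524759-116525008 on the plus strand, and its capitals mark 3 GC boxes, GGGCGG or its reverse CCGCCC, at 180, 92 and 64 bases before the start. At least 1 GC box occurs in 42.3% of the windows. Neither region holds the CCAAT word, the E-box CACGTG, the cyclic AMP element TGACGTCA or the AP-1 word TGANTCA on either strand. These words describe the sequence and say nothing of binding.

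**Figure D3:**
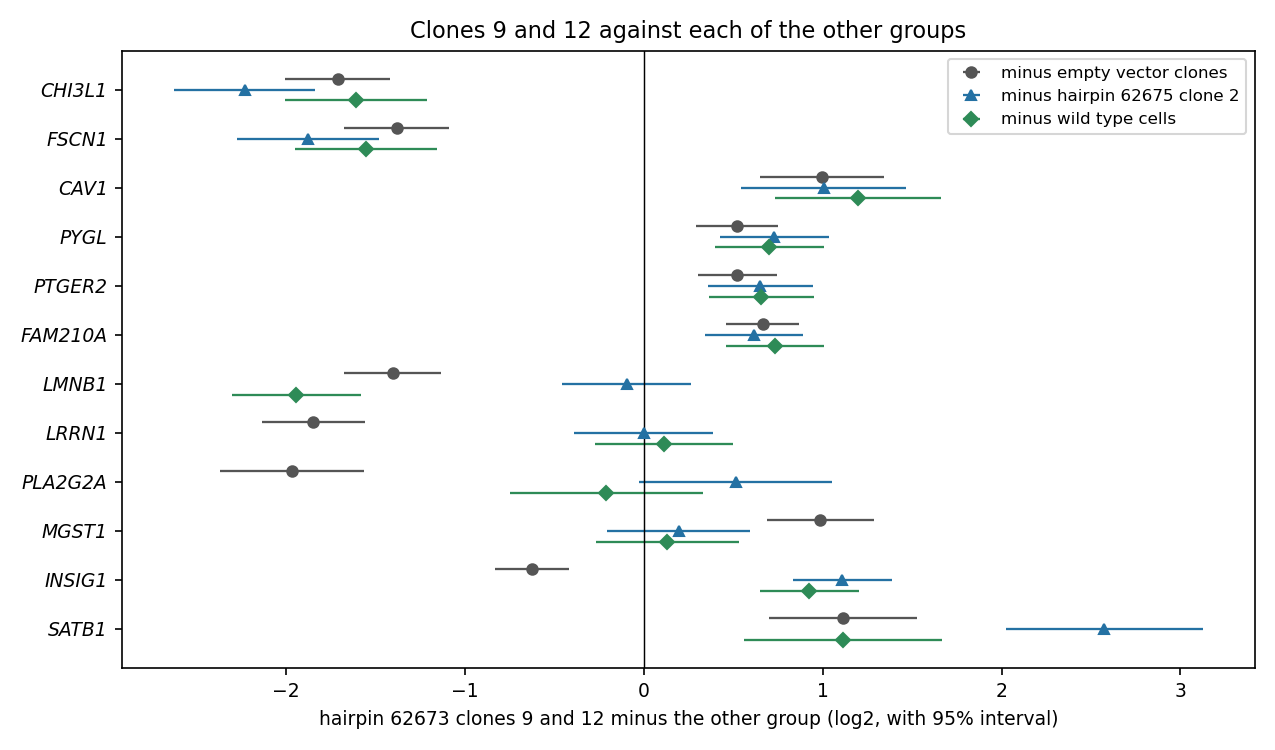
Points are the log2 differences of clones 9 and 12 from the empty vector clones, from clone 2 of hairpin V2LHS_62675 and from wild type cells for 12 genes, with 95% intervals from limma. CHI3L1 and FSCN1 lie below 0 and CAV1, PYGL, PTGER2 and FAM210A above 0 in all 3 comparisons, while LRRN1, PLA2G2A and MGST1 have intervals away from 0 against the empty vector and across 0 in the other comparisons, and INSIG1 changes side.

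LRRN1 and PLA2G2A fell against the empty vector but did not pass against clone 2 or wild type cells. LRRN1, a leucine-rich repeat membrane protein, was 5.87, 5.59 and 5.95 in clones 8, 9 and 12 and 7.80, 7.48 and 7.58 in the empty vector clones. Clone 2 had 5.77 and wild type cells 5.66, so the empty vector clones are the ones apart. All levels outside the empty vector clones lie below the filter level of 5.96, so differences among them are taken at the low end of the arrays. The gene's mean cleared that filter only through the empty vector clones. LRRN1 fell by 1.85 against the empty vector without clone 8 (SE 0.13, adjusted p 3.58e-04 in limma) and stood at 0.00 (95% interval -0.39 to 0.39) against clone 2 and 0.11 (95% interval -0.27 to 0.50) against wild type cells. PLA2G2A, a secreted phospholipase of Paneth cells in the gut, was 7.07, 7.24 and 6.64 in the hairpin clones and 9.01, 9.11 and 8.61 in the empty vector clones. Clone 2 had 6.43 and wild type cells 7.15. The first lies below the hairpin clones and the second within their range. PLA2G2A fell by 1.97 without clone 8 (SE 0.18, adjusted p 0.0013 in limma), against 0.51 (95% interval -0.03 to 1.05) from clone 2 and -0.21 (95% interval -0.75 to 0.33) from wild type cells. With all 3 clones LRRN1 differed from the empty vector by -1.81 (adjusted p 0.113) and PLA2G2A by -1.92 (adjusted p 0.214).

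The same pattern of calls held for several smaller differences, all given without clone 8. KHDRBS3, an RNA-binding splicing regulator, fell by 0.92 against the empty vector and stood at 0.07 against clone 2 and -0.17 against wild type cells. IDH2, the mitochondrial isocitrate dehydrogenase, fell by 0.75 and stood at 0.23 and -0.12. The transporter gene SLC33A2 fell by 1.14 and stood at -0.07 and 0.08. MGST1, a microsomal glutathione transferase, rose by 0.99 and stood at 0.20 and 0.13, and the cohesin subunit SMC3 rose by 0.75 and stood at -0.04 and -0.02. NUFIP1, which takes part in the assembly of small nucleolar RNA particles, rose by 0.63 and stood at -0.23 and -0.46. None of these genes passed against clone 2 or wild type cells, and for KHDRBS3 the interval against clone 2 runs from -0.31 to 0.44. In IDH2 clone 8 read 10.17, above all empty vector clones (9.30 to 9.44), while clones 9 and 12 read 8.65 and 8.62.

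Zinc finger genes and SATB1 were among the genes that rose. ZNF738, a zinc finger gene, was 8.54, 8.17 and 8.59 in clones 8, 9 and 12 and 7.37, 7.01 and 7.08 in the empty vector clones. Clone 2 had 8.41 and wild type cells 7.63. It rose by 1.23 without clone 8 (SE 0.14, adjusted p 0.00666 in limma) and differed by 1.28 with it (SE 0.18, adjusted p 0.327). SATB1, a chromatin organiser that binds the bases of DNA loops, was 7.45, 7.95 and 7.62 in the hairpin clones and 6.24, 6.98 and 6.78 in the empty vector clones. Clone 2 had 5.21 and wild type cells 6.67, so SATB1 was highest in the hairpin V2LHS_62673 clones and lowest in clone 2. It rose by 1.11 against the empty vector (SE 0.19, adjusted p 0.0267) and by 2.58 against clone 2 (adjusted p 0.00117), and stood at 1.11 against wild type cells (adjusted p 0.0574), all in limma without clone 8. The further zinc finger genes, ZNF468 (0.86) and ZNF875 (0.82), also rose, and such genes have close relatives that can share probe signal.

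Other genes that rose without clone 8 had varied roles. DOK3, an adaptor protein of immune receptor signalling, rose by 0.93, the membrane scaffold MPP1 by 0.85, PIK3R1, the regulatory subunit of PI3 kinase, by 0.83, and the transcription factor NFIB by 0.82. The cysteine protease inhibitor CST7 rose by 0.76 and the thiamine transporter SLC19A3 by 0.75. With clone 8 included the differences were 0.74 for MPP1 and 0.74 for CST7, but 0.62 for DOK3, 0.24 for PIK3R1, 0.28 for NFIB and 0.40 for SLC19A3. Clone 8 was the lowest sample in PIK3R1, at 7.52 against 8.17 to 9.37 in the other 5 clones, and in NFIB, at 6.65 against 7.27 to 8.28. The splicing factor SF3A1 (0.72), the endothelin precursor EDN1 (0.53), TPRG1 (0.58), DIRAS2 (0.85) and the co-chaperone DNAJA1 (0.62) were higher in each of the 3 hairpin clones than in each empty vector clone, each with an adjusted p of 0.742 in limma. Of these 5, SF3A1 and TPRG1 passed without clone 8.

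On the lower side without clone 8, the monocarboxylate transporter family member SLC16A4 fell by 1.84 and TMEM47, a junction-associated membrane protein, fell by 1.57. SLC16A4 was 6.62 to 7.05 in the hairpin clones and 7.61, 8.96 and 9.08 in the empty vector clones, so empty vector clone 1 lay nearest. TFF3, a trefoil peptide of goblet cells, fell by 1.11, the sulfotransferase SULT1C2 by 1.22, the neutrophil chemokine CXCL5 by 1.08, the inhibitory G protein GNAI1 fell by 1.05 and WFS1, a membrane protein of the endoplasmic reticulum, by 1.00. Clone 8 read 9.55 for TFF3, 11.20 for CXCL5 and 8.07 for WFS1, above the highest empty vector clone in each (9.54, 10.98 and 7.33). RAB25, which steers membrane recycling in epithelial cells, was 9.48, 9.94 and 9.75 in clones 8, 9 and 12 and 10.44, 10.62 and 10.54 in the empty vector clones. It fell by 0.69 without clone 8, and CD44, the hyaluronan receptor, by 0.70, RPF2 of ribosome assembly by 0.60, the sugar transporter SLC50A1 by 0.67 and ID1 by 0.68. In these 5 genes clone 8 also lay below every empty vector clone, and with it the differences were -0.81, -0.84, -0.67, -0.71 and -0.66, none of which passed. The fall of RPF2 depends on the probe, since the mean over its probes gave -0.38 without clone 8 (adjusted p 0.182 in limma) and -0.22 with it. With wild type cells added to the controls, the difference of ID1 with all 3 clones moved from -0.66 to -0.44. Under the same change the differences of CD44 and RPF2 grew, and those of all other genes in this paragraph shrank. For SULT1C2, SLC16A4 and ID1 the shift places wild type cells below the hairpin mean, so their fall holds against the empty vector only. Against wild type cells CD44 fell by 0.84 and RPF2 by 0.92 (adjusted p 0.036 and 0.0156 in limma).

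Genes were then grouped into 28 lists by function, each given by its counts and median. With all 3 clones no member of any list passed. DNA replication genes lay higher in clones 9 and 12. Of 57 measured, 47 were higher than the empty vector without clone 8 (82.5%, against 49.8% of all genes), with a median of 0.14, but none passed. In 25 of them (43.9%, against 15% of all features) clones 9 and 12 both lay above all 3 empty vector clones. MCM8, a helicase of replication and repair, stood at 0.50 (adjusted p 0.0625), MCM10, an initiation factor, at 0.51, and the licensing factors ORC6 and CDC6 at 0.38 and 0.48, while RFC4, a clamp loader subunit, stood at -0.31. The list's median was 0.14 in clone 9, 0.13 in clone 12 and -0.22 in clone 8, and 0.27 in clone 2 and 0.35 in wild type cells, each against the empty vector mean. Set directly against clone 2 and wild type cells, clones 9 and 12 had medians of -0.13 and -0.15. With all 3 clones against the empty vector, 32 of the 57 were higher (median 0.04). Without clone 8, 0.929% of all features fell against clone 2 and 0.714% against wild type cells. In the direct comparisons MCM2, a subunit of the replicative helicase, fell by 0.59 and 0.65 and was the 1 member to pass in each (adjusted p 0.0403 and 0.0363 in limma).

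Lists of neighbouring functions also had more higher than lower members. DNA damage and repair genes were higher in 28 of 36 (median 0.11) and mitosis genes in 37 of 49 (median 0.11) without clone 8, and none passed. The proliferation marker MKI67 stood at 0.40, the mitotic transcription factor FOXM1 at 0.32, the double-strand break nuclease MRE11 at 0.31 and the nucleotide excision repair factor ERCC1 at -0.28. In clone 8 these medians were -0.32 and -0.44, on the opposite side. For repair and mitosis genes in turn, they were 0.15 and 0.29 in clone 2 and 0.15 and 0.29 in wild type cells. Set directly against clone 2, clones 9 and 12 had medians of -0.04 and -0.22, and against wild type cells of -0.05 and -0.18. Cohesin, condensin and related genes were higher in 19 of 27 (median 0.09), with medians of 0.17 in clone 2 and 0.18 in wild type cells. SMC3 and SATB1 rose and NSMCE1, a subunit of the SMC5/6 complex, fell by 0.62, while SMC5 itself stood at 0.43. Of all features 0.304% rose and 0.688% fell. Nuclear pore genes were higher in 15 of 23 without clone 8 (median 0.03) and lower in 19 of 23 with it (median -0.16), with a median of -0.61 in clone 8 itself. NUP54 shows the split, at 8.35 in clone 8, 9.87 and 9.89 in clones 9 and 12, and 9.86 to 10.12 in the empty vector clones. Replication-dependent histones (38 measured, median 0.02) and heterochromatin and Polycomb genes (40 measured, median -0.01) lay near 0 without clone 8, and none passed. Against wild type cells the histone genes H2BC17 and H4C2 fell by 0.97 and 0.86, where 0.714% of all features fell. The histone list had a median of -0.37 in that comparison. Histone genes of one family are close in sequence and can share probe signal.

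Most members of the stress and growth factor response lists were lower by the mean of clones 9 and 12. For the unfolded protein and ATF4 response, 34 of 41 genes were lower without clone 8 (median -0.21), and none passed. In 8 of the 41 (19.5%, against 17.3% of all features) clones 9 and 12 both lay below all empty vector clones. The 3 empty vector clones themselves were far apart in DDIT4, an inhibitor of mTORC1, at 8.98, 9.78 and 10.08, and clones 9 and 12 had 8.72 and 7.49. ASNS, the asparagine synthetase, was 10.67 and 9.92 in clones 9 and 12 and 10.64, 11.12 and 11.23 in the empty vector clones, so clone 9 overlapped them. The list's median was -0.03 in clone 9, -0.33 in clone 12 and -0.10 in clone 8. Hypoxia and glycolysis genes were lower in 22 of 31 (median -0.18), with 15 (48.4%, against 17.3% of all features) below all empty vector clones in clones 9 and 12. NDRG1, a hypoxia target, stood at -0.81 and PDK1, which restrains pyruvate entry into mitochondria, at -0.36, while the glycolytic enzyme PGK1 stood at 0.36. Immediate early and ERK feedback genes were lower in 34 of 42 (median -0.13), and IER3 fell by 0.83, where 0.688% of all features fell. The EGFR ligand EREG stood at -0.68 (adjusted p 0.0567 in limma) and JUNB at -0.58. Interferon and antigen presentation genes were lower in 25 of 30 (median -0.08), with IRF9 at -0.45 and IFIT3 at -0.60, and none passed.

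In clone 2 and wild type cells, the medians against the same empty vector mean were -0.18 and -0.20 for the ATF4 list, -0.16 and -0.17 for the hypoxia list, -0.04 and -0.16 for the immediate early list, and -0.02 and -0.16 for the interferon list. These values share the 3 empty vector arrays with those of clones 9 and 12. In clone 8 the hypoxia, immediate early and interferon medians were -0.02, 0.01 and -0.11. Compared directly, clones 9 and 12 had medians of 0.0022 and 0.08 for the ATF4 list against clone 2 and wild type cells, and -0.0067 and -0.0045 for the hypoxia list.

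**Figure D4:**
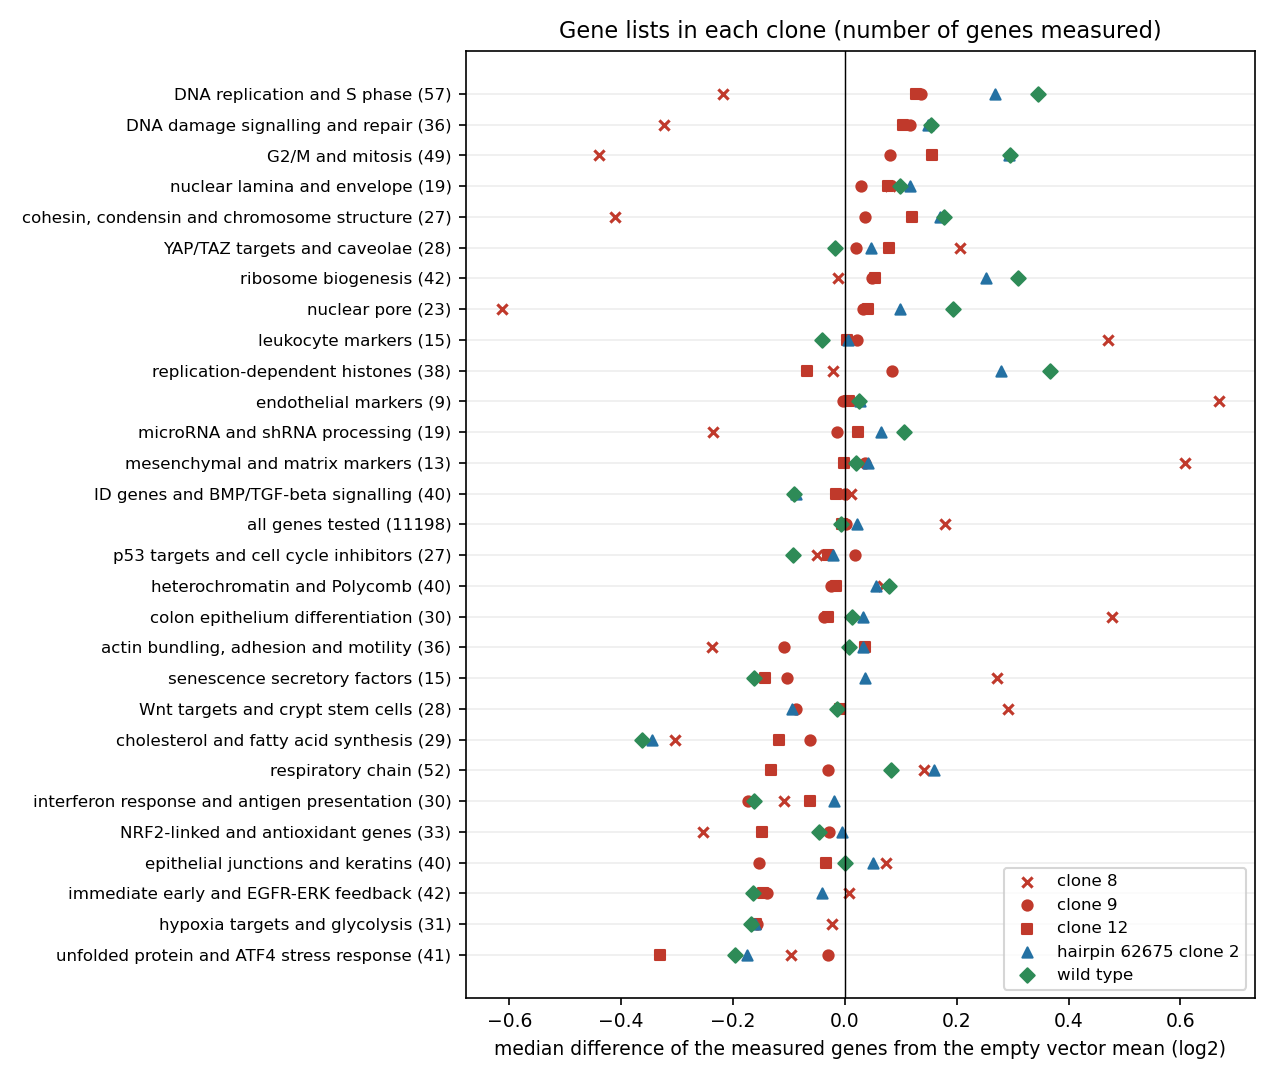
For each gene list, points are the median log2 difference of its measured members from the empty vector mean in each hairpin V2LHS_62673 clone, in clone 2 of hairpin V2LHS_62675 and in wild type cells. Clone 8 lies away from clones 9 and 12 in many lists, at -0.61 for nuclear pore genes and 0.67 for endothelial markers, while the median over all 11198 genes is 0.18 in clone 8, 0.0020 in clone 9 and -0.0042 in clone 12.

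Cholesterol and fatty acid synthesis genes split by the group they were compared with. INSIG1, the sterol sensor that holds back SREBP, was 9.41, 9.60 and 9.53 in clones 8, 9 and 12. It was 10.11, 10.25 and 10.21 in the empty vector clones but 8.45 in clone 2 and 8.64 in wild type cells, so the hairpin V2LHS_62673 clones lie between. Without clone 8 INSIG1 fell by 0.62 against the empty vector (adjusted p 0.0205) and rose by 1.11 against clone 2 (adjusted p 0.00318) and by 0.93 against wild type cells (adjusted p 0.0156) in limma. Against the empty vector 18 of 29 genes of this list were lower (median -0.07), and INSIG1, the acetyl-CoA synthetase ACSS2 (-0.57) and the sterol reductase TM7SF2 (-0.53) fell, where 0.688% of all features fell. Against clone 2 the median was 0.13, and IDI1 (0.81), LSS (0.65), MSMO1 (0.75) and INSIG1 rose, of which the first 3 encode enzymes of the sterol pathway. Against wild type cells the median was 0.20, and IDI1 (0.82), MSMO1 (1.05), TM7SF2 (0.66) and INSIG1 rose. No member fell against clone 2 or wild type cells. Of all features, 1.22% rose against clone 2 and 0.705% against wild type cells.

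Several ribosome biogenesis and respiratory chain genes fell against clone 2 and wild type cells. Of 42 ribosome biogenesis genes, RPF2 fell against the empty vector with the probe used, and the list's median was 0.05 without clone 8. Against clone 2, NOP16 (-0.58), PES1 (-0.72), RRP9 (-0.77) and MRTO4 (-0.62) fell, with a list median of -0.20. Against wild type cells, NOP16, PES1 (-0.77), RRP9, NOB1 and RPF2 fell, with a median of -0.28. PES1, a factor of the large ribosomal subunit, was 8.08 and 8.11 in clones 9 and 12, 7.96 to 8.06 in the empty vector clones, 8.82 in clone 2 and 8.87 in wild type cells. Clone 8 had 8.63, apart from clones 9 and 12. Of 52 respiratory chain genes, 33 were lower than the empty vector without clone 8 (median -0.08) and none passed. In 18 of them (34.6%, against 17.3% of all features) clones 9 and 12 both lay below all empty vector clones. With all 3 hairpin clones this held for 4 (7.69%), against 7.95% of all features, and the list's median in clone 8 was 0.14. Against clone 2 the complex I gene NDUFC1, the complex III gene UQCR11 and the cytochrome oxidase genes COX6C and COX7A2 fell by 0.64 to 0.78, and against wild type cells UQCR11, COX7A2 and COX7B fell by 0.67 to 0.98. Averaging the probes of COX7A2 moved its difference from the empty vector from -0.51 to -0.32. In the hairpin clones UQCR11 was 8.32 and 8.39 in clones 9 and 12 but 10.15 in clone 8. Of all features, 0.929% fell against clone 2 and 0.714% against wild type cells.

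A few adhesion, junction and differentiation genes fell against the empty vector without clone 8, where 0.688% of all features fell and 0.304% rose. In the actin and adhesion list (36 measured, median -0.03 without clone 8) FSCN1, CD44 and the epithelial integrin subunit ITGB6 (-0.50) fell against the empty vector. VIL1, the actin bundler of the brush border, stood at -0.42 against the empty vector (adjusted p 0.0833) and fell by 0.68 against clone 2 and 0.76 against wild type cells (adjusted p 0.0391 and 0.0334 in limma). Of 40 junction and keratin genes, 28 were lower than the empty vector (median -0.10), and RAB25 and the claudin CLDN12 (-0.49) fell. Of 30 colon differentiation genes, 17 were lower and PLA2G2A and TFF3 fell. Among 40 ID and BMP/TGF-beta genes, ID1 and ID3 (-0.71) fell, whose products block DNA binding by helix-loop-helix partners. TGFB2, a ligand of this pathway, stood at 0.53 against the empty vector (adjusted p 0.134), with 8.88 in clone 8, 9.80 and 10.37 in clones 9 and 12 and 9.38 to 9.65 in the empty vector clones. Clone 2 had 8.36 and wild type cells 8.73, and TGFB2 rose by 1.73 and 1.36 against them (adjusted p 0.0045 and 0.0223). Of 28 YAP/TAZ and caveolae genes CAV1 rose, while CAV2, its partner in caveolae, stood at -0.39 and the YAP target CCN2 at 0.36.

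Among NRF2-linked and antioxidant genes (33 measured, median -0.10), MGST1 rose and IDH2 and the glutathione transferases GSTK1 (-0.71) and GSTA4 (-0.57) fell. In this comparison 0.304% of all features rose and 0.688% fell. The chemokine CXCL5 was the 1 member of 15 senescence secretory factors to pass, and CD44 the 1 member of 28 Wnt and crypt genes, where MYC stood at -0.42. None of 27 p53 targets passed (median -0.0022), with MDM2 at 0.34 and TP53I3 at -0.32, and none of 19 genes of microRNA and hairpin processing passed (median 0.01). Mesenchymal, leukocyte and endothelial markers (13, 15 and 9 measured) had medians of 0.0040, 0.02 and 0.02 without clone 8, and of 0.61, 0.47 and 0.67 in clone 8. None of them passed.

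Differences between the constructs were tested directly. Without clone 8, 241 features (2.15%) passed between hairpin V2LHS_62673 and clone 2 of hairpin V2LHS_62675, 137 higher and 104 lower, and none in limma with all 3 clones, where 249 (2.22%) had an unadjusted p under 0.05. Leaving out empty vector clone 2 or 3, which enter through the estimate of spread, gave 69 and 75. Clone 2 enters as 1 sample and is assumed to vary like the other groups. LMNB1 itself did not pass between the constructs, at -0.10 (95% interval -0.46 to 0.27). The chloride channel CFTR was 8.51, 8.21 and 8.23 in clones 8, 9 and 12, 7.99 to 8.24 in the empty vector clones and 8.24 in wild type cells, but 6.04 in clone 2. Clone 2 alone is low, and the difference was 2.18 (95% interval 1.88 to 2.49, adjusted p 1.14e-04 in limma). The guidance receptor NEO1 (1.85), the matrix protein NPNT (2.08) and LHFPL6 (1.77) were higher than in clone 2 and passed, each with clone 2 the lowest sample. The phosphatase PTPRR (-1.61), SPINK4, a goblet cell peptide (-1.39), and PHLDB2, which links the cell cortex to microtubules (-1.36), passed on the lower side, each with clone 2 the highest sample.

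Against wild type cells, 159 features (1.42%) passed without clone 8, 79 higher and 80 lower, and none in limma with all 3 clones, where 250 (2.23%) had an unadjusted p under 0.05. The wild type group is 1 array, which is likewise assumed to vary like the other groups. Without empty vector clone 1 the count was 243, without clone 2 of that group 5 and without clone 3 of that group 2. The LMNB1 probe was 9.52 in wild type cells and fell by 1.94 in clones 9 and 12 (SE 0.16, adjusted p 0.00202 in limma). MRPS17, a mitochondrial ribosomal protein, rose by 2.63, with 5.74 in wild type cells and 7.43 to 8.92 elsewhere. CYBRD1, a duodenal iron reductase, rose by 1.23 and the aldehyde dehydrogenase ALDH7A1 by 1.13. IQGAP2, a scaffold of the actin cytoskeleton, and RRP36, a factor of ribosomal RNA processing, fell by 1.22 and 1.07. In each of these 5 genes the wild type sample is at 1 end of the 8 clone-level values.

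By chromosome, genes on chromosome 13 lay higher in clones 9 and 12. Of 188 measured, 134 (71.3%) were above the empty vector mean without clone 8, with a median of 0.08, against 49.8% of all genes. The share on the other chromosomes ran from 40.9% to 62.2%. The median was 0.11 in clone 9, 0.04 in clone 12 and -0.05 in clone 8, and 0.0052 in clone 2 and 0.0018 in wild type cells. Over all genes the median in clone 8 was 0.18. In 56 of the 188 (29.8%, against 15% of all features) clones 9 and 12 both lay above the empty vector clones. On the other chromosomes this share ran from 9.70% on chromosome 1 to 27.8% on chromosome 18, with 25% on chromosome X. NUFIP1, the mediator kinase CDK8 (0.51), the centriole protein CPAP (0.51) and CHAMP1 of chromosome alignment (0.54) rose, which is 2.13% of the 188, where 0.304% of all features rose. With all 3 clones, 103 of the 188 (54.8%) were higher, against 55.2% of all genes. All 3 hairpin clones lay above the empty vector clones in 15 (7.98%), against 5.8% of all features. In clone 8, CDK8 was 8.23 and CPAP 7.53, below all empty vector clones. Against clone 2, 17 of the 188 rose and 2 fell, where 1.22% of all features rose and 0.929% fell. None of the 188 rose against wild type cells and 2 fell, where 0.705% of all features rose and 0.714% fell. DNA copy number was not measured here, and CDK8, CPAP and CHAMP1 were picked after their values were seen.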

How the data were processed

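RNA of 10 DLD-1 samples was measured on arrays. Per the labels' protocols, ribosomal RNA was reduced in total RNA before it was amplified, copied into single-stranded cDNA and end-labelled with biotin. The authors deposited 1 log2 value per probe and array, with the base read from the range of the values. How the authors corrected the background and normalized the arrays is not given in the sources used here. No further scaling was applied, and raw intensities were not used. The number of arrays limits the precision.

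Symbols were updated by gene identifier to a RefSeq table of GRCh38.p14, which held 14404 of the 14432 probes with a single symbol. Clone-level samples were fitted in R 4.3.3 with limma 3.58.1 (lmFit, eBayes) as 4 groups, two-sided, with Benjamini-Hochberg adjustment over 11199 features and a threshold of 0.05. Clone 2 entered as the mean of its 3 arrays. The test was checked on simulated data. Intervals are 95%. No set test was run.

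The members and the 28 lists (1190 entries, 889 measured) were chosen with earlier results of these data known. Genes named are the lamins, the 12 largest differences each way against the empty vector with and without clone 8 among genes that passed and whose groups do not overlap, filled by the smallest p, up to 6 per list by the smallest p, and the 5 largest each way against clone 2 and wild type cells. Exceptions are marked, and the other list members named are those that passed against clone 2 or wild type cells, with SDHC and H2BC4 as examples of clone 8. Alternatives were quantile normalization, median centring, other filters, averaging the probes of each gene, array weights, a trended robust prior, each array of clone 2 as a replicate, wild type cells among the controls, and leaving out each clone.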

Additional observations from a re-analysis of the deposited data

How the results depend on the processing

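With all 3 hairpin clones, the count against the empty vector was 0 and became 338 with array weights (clone 8 had a weight of 0.0367 and the others 1.08 to 2.76) and 6 with each array of clone 2 as a replicate. Leaving out single clones gave 0 to 111, the latter without clone 8. Against clone 2 the corresponding counts were 371, 15 and 0 to 241, and against wild type cells 370, 1 and 0 to 159, with 1 when no filter was used. The LMNB1 difference of -1.33 passed with array weights (-1.37) and with each array of clone 2 as a replicate (-1.33), and ranged from -1.40 to -1.24 when single clones were left out.

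Without clone 8, the count of 111 against the empty vector was 27 with quantile normalization, 61 with median centring, 71 with no filter, 168 with a trended robust prior, 20 with each array of clone 2 as a replicate and 2 with wild type cells among the controls. It ranged from 4 to 493 when single clones were left out. All 27 and all 61 genes were among the 111. Against clone 2 the count of 241 was 153, 127 and 128 with quantile normalization, median centring and no filter, 414 with each array of clone 2 as a replicate, and 69 to 277 when single clones were left out. Against wild type cells the count of 159 was 86, 100 and 77 with the same 3 settings, 265 with a filter at the 50th percentile, 302 with a trended robust prior, 239 with array weights, 8 with each array of clone 2 as a replicate, and 2 to 243 when single clones were left out. LMNB1 missed the threshold at -1.54 with wild type cells among the controls, and ranged from -1.53 to -1.28 when single clones were left out. Array weights turned the sign with all 3 clones for MCM8 (0.45, from -0.01) and RRS1 (0.52, from -0.03), which lay far lower in clone 8 than in clones 9 and 12. The causes of these and the other shifts were not tested. No paired analysis was possible because the labels pair no hairpin V2LHS_62673 clone with an empty vector clone.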
